A study of Mus musculus with 16 samples.

Results

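The effect of cardiomyocyte nitric oxide synthase 3 on the left ventricle without pressure load was read from 8 of the 16 arrays of the study: those of 4 alpha-MHC-NOS3 transgenic mice and of 4 wild-type littermates whose stage is given as control-intact. The arrays were chosen by these labels, with no use of measured values. The transgene places NOS3 under the alpha-myosin heavy chain (alpha-MHC) promoter, which restricts it to heart muscle cells. The labels do not give the number of transgenic lines or the species of the NOS3 sequence. Both groups were on a C57BL/6 N background, matched for age and weight, and held 2 males and 2 females each. The intact mice are not described as sham-operated. RNA came from a ring of tissue cut from the middle of the ventricle, so every value is an average over all its cells, and more cells of a type cannot be told apart from more RNA per cell. The other 8 arrays, of the same genotypes 10 weeks after transverse aortic constriction (TAC), were used only for comparison.

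Nitric oxide synthase 3, the endothelial isoform, makes nitric oxide from arginine when calmodulin is bound and tetrahydrobiopterin is present. Nitric oxide activates soluble guanylate cyclase, and the cyclic GMP formed acts through protein kinase G and is broken down by phosphodiesterases. In the normal heart most of the enzyme is in endothelial cells, and cardiomyocytes hold less. Nitric oxide can also modify cysteines, among them those of KEAP1, the protein that keeps the transcription factor NRF2 low, and the genes that NRF2 controls make glutathione, thioredoxin and quinone-reducing enzymes.

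A level below is the log2 processed signal of a probe minus that of the 75th percentile of its array, so that 0 is the signal of the 75th percentile. Levels are compared between arrays, not between probes. Males are replicates 1 and 3 and females replicates 2 and 4 of each group. Replicates 1 and 2 lay on the first slide, replicates 3 and 4 on the second. On both slides NOS3 arrays held positions 1 and 2 and wild-type arrays positions 3 and 4, so position and genotype cannot be told apart. The arrays' 75th percentile signal was 1259 ± 100 (SD, n = 4) in NOS3 and 1114 ± 68.3 (SD, n = 4) in wild type (exact permutation test, two-sided, p = 0.0857, where the smallest possible is 0.0286). The share of probes well above background was 50.4% ± 4.3 and 54.0% ± 1.9 (SD, n = 4; exact permutation p = 0.171), and was lowest, at 44.5%, on NOS3 replicate 2.

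Both replicate 2 arrays stood apart by areas of neighbouring spots that departed from the other arrays of their group. On NOS3 replicate 2 the areas held 2135 spots (4.92%), and 651 of the 652 departing spots in them were brighter. On wild-type replicate 2 they held 943 spots (2.17%), and all 187 departing spots were dimmer. The transcription factor gene of the NRF2 pathway, Nfe2l2, lay there: its level was 3.72, 3.79, 3.77 and 3.91 in NOS3 and 3.86, 3.95 and 3.94 on the other wild-type arrays, but -6.46 on wild-type replicate 2. With the areas set to missing its difference was -0.11 ± 0.12 (SE; adjusted p = 0.724), against 2.48 with them.

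All 9 cardiomyocyte markers were well above background on all 8 intact arrays, and none of them was called. The atrial markers Myl4, Myl7, Sln and Nppa varied widely within both groups. Their summed linear level was 275, 298, 59.3 and 279 in NOS3 and 396, 64.1, 87.5 and 70.3 in wild type. More NOS3 than wild-type arrays were thus at the high level. The part of atrial tissue in the results was not tested.

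Nos3, the transgene's own gene, was measured first. Its level was 7.63, 8.02, 7.91 and 7.88 on the NOS3 arrays and 0.96, 1.45, 1.29 and 1.40 on the wild-type arrays. Every transgenic array was far above every wild-type array, and the difference was 6.58 ± 0.12 (log2, SE), or 95.9-fold (adjusted p = 7.51e-11). The probe, placed by the array's annotation at chr5:23424311-23424370 with no build named, does not tell transgene from endogenous RNA in these data. After TAC the difference was 5.69 ± 0.12.

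Over all genes, 109 of 15667 tested (0.696%) passed the threshold of 0.05 for the adjusted p and are said to be called, of which 84 rose (0.536%) and 25 fell (0.160%) in NOS3 ventricle. Of the 109, 46 differed by over 2-fold, 41 of them higher. Well above background on all 8 intact arrays were 76 of the 109, and 1 was so on none. The median difference of all genes was -0.06, and at an unadjusted p under 0.05 there were 772 higher (4.93%) and 1416 lower (9.04%). The groups did not overlap in 95 of the 109, against 9.95% of all genes (3.89% with NOS3 above wild type and 6.06% with it below). With the departing areas set to missing, 113 genes were called, 104 of them among the 109. The count rested on each of several arrays: it was 24 without wild-type replicate 4, 29 without NOS3 replicate 3, 30 without NOS3 replicate 2, 37 and 38 without wild-type replicates 1 and 2, and 53 without NOS3 replicate 4. Of the 109 calls, 24 were kept whichever of the 8 arrays was left out.

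**Figure D1:**
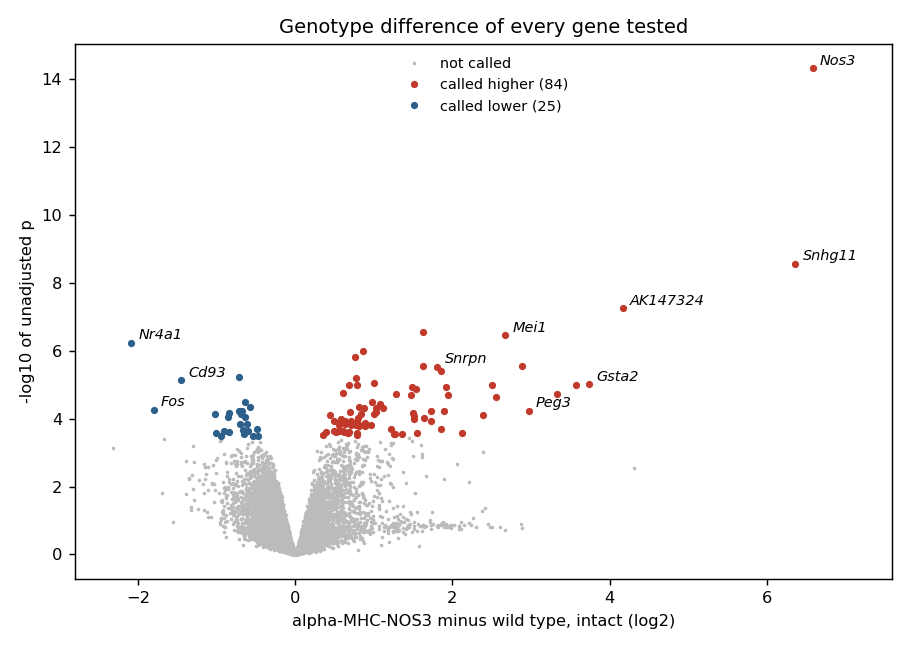
Difference between alpha-MHC-NOS3 and wild-type intact ventricle (log2, x axis) against -log10 of the unadjusted p (y axis) for all 15667 genes tested, each a point. Nos3 and Snhg11 stand far to the right, and 84 called genes lie on the right against 25 on the left. Of the 176 uncalled genes over 2-fold higher, 73 had their wild-type replicate 2 spot and 45 their NOS3 replicate 2 spot in the departing areas.

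The 109 genes had the same sign on both slides, against 67.3% of all genes, and the same sign in males and females. They were picked for a small p on these same arrays, which favours such agreement. It is therefore, like the separation of the groups above, no independent support. No gene was called for an interaction of genotype with sex (limma, smallest adjusted p = 0.442; 1172 genes at an unadjusted p under 0.05, 7.48%). The TAC arrays are other mice, with the same slide positions per genotype. There, 102 of the 109 had the same sign, against 55.7% of all genes, and 76 also had an unadjusted p under 0.05 in the same direction. Of the 74 genes called after TAC (0.472%), 29 were among the 109, which is 26.6% of the intact and 39.2% of the TAC calls. No gene was called for the interaction of genotype with TAC (limma, smallest adjusted p = 0.11; 1340 genes at an unadjusted p under 0.05, 8.55%), so none of the differences between the conditions passed the test.

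**Figure D2:**
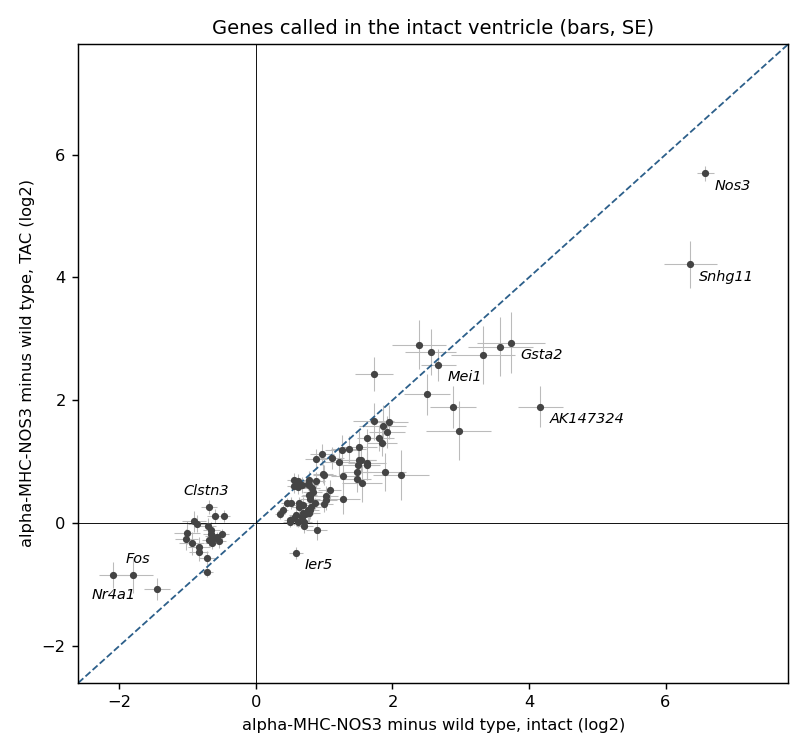
Genotype difference (log2) in intact ventricle (x axis) and after TAC (y axis) for the 109 genes called in intact ventricle, with SE bars from the limma fit and a dashed line of equality. Of these genes, 102 have the same sign in both; Ier5 and Clstn3 are among the 7 that do not.

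Calmodulin stood out among the partners and regulators of NO synthase. Of 25 measured genes of this list, 2 were called (0.696% of all genes), the transgene's own Nos3 and Calm3, which encodes the calcium sensor calmodulin. Calm3 was at 4.65, 4.99, 4.81 and 4.56 in NOS3 and at 4.04, 3.96, 3.89 and 3.98 in wild type. The groups did not overlap, and Calm3 rose by 0.78 ± 0.10 (1.72-fold, adjusted p = 0.00781). Its other 2 probes differed by 0.74 and 1.09. The call was kept whichever array was left out. Calm2, which encodes the same protein, differed by 0.34 ± 0.10 (adjusted p = 0.164) and was not called. Gch1, the rate-limiting enzyme of tetrahydrobiopterin synthesis, differed by 0.08 ± 0.11, and Cav3, the muscle caveolin that binds NO synthase, by 0.13 ± 0.08.

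In the cyclic GMP pathway none of 19 measured genes was called, while 7 had an unadjusted p under 0.05 and all 7 were lower (9.04% of all genes). The list median was -0.15, against -0.06 for all genes. Rgs2, a regulator of G protein signalling that protein kinase G activates, was at 3.63, 3.96, 3.36 and 3.91 in NOS3 and at 4.93, 4.63, 4.61 and 4.64 in wild type. These groups did not overlap, but the difference of -0.99 ± 0.24 did not pass the test (adjusted p = 0.101). Gucy1b1, the beta subunit of soluble guanylate cyclase, differed by -0.31 ± 0.11 (adjusted p = 0.255), and Prkg1, protein kinase G itself, by 0.03 ± 0.17.

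The largest rise after Nos3 was that of Snhg11, a long noncoding RNA that hosts small nucleolar RNAs. Its level was -0.16, 1.40, 0.08 and -0.43 in NOS3, while in wild type it was -4.91, -6.58, -6.49 and -6.58 and not well above background on any array. Against a floor set by the dimmest probes well above background on each wild-type array, Snhg11 was 23.9-fold higher in NOS3 (measured difference 6.36 ± 0.39, adjusted p = 2.16e-05). That fold depends on the floor and is not a strict lower bound. Snhg11 was tested in 13 of the 15 alternative ways of processing. Over these and the array omissions the lowest difference was 3.50. Its other 3 probes differed by 3.27, 4.34 and 5.14, and after TAC the difference was 4.21 ± 0.39. NOS3 replicate 2, the highest value, lay in a departing area, and without that spot the difference was 6.02 ± 0.40 (adjusted p = 0.000181).

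**Figure D3:**
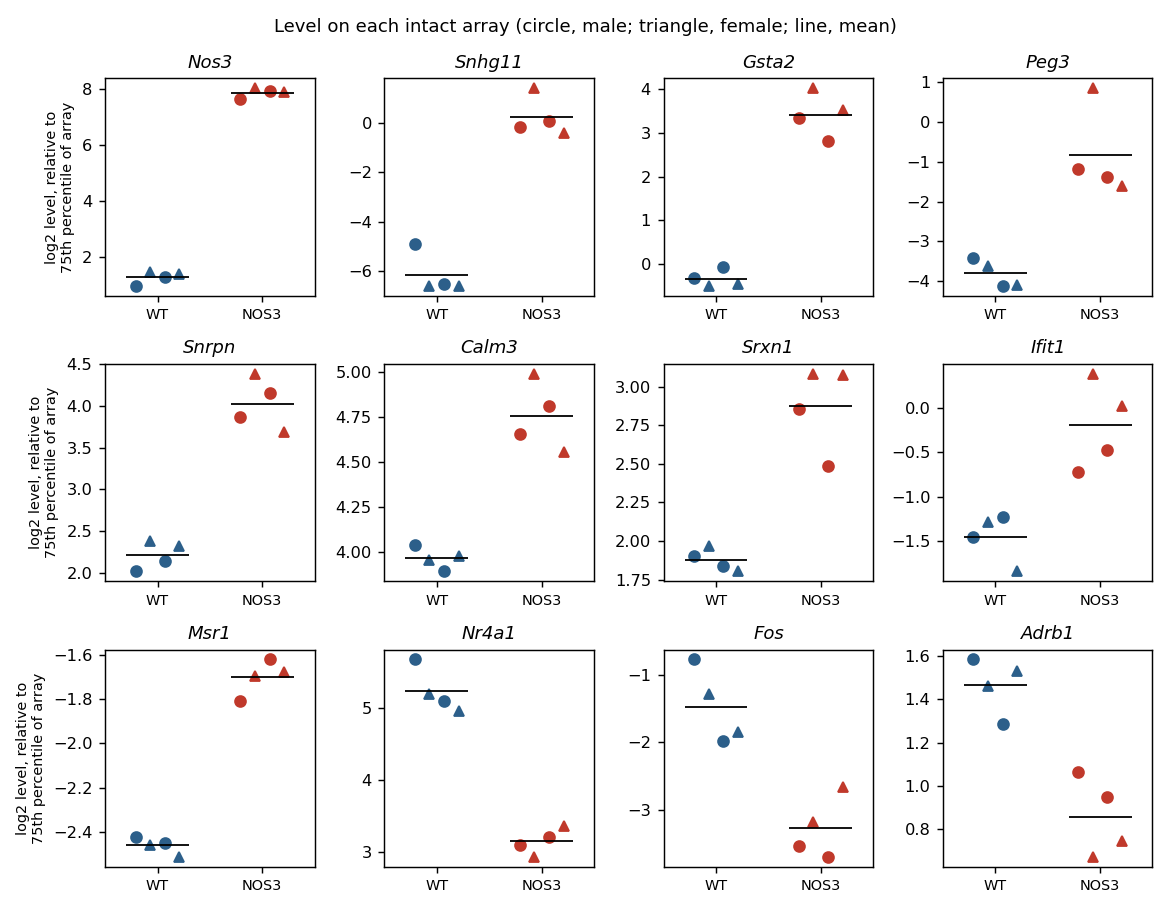
Log2 level relative to the 75th percentile of the array (y axis, own scale in each panel) of 12 genes on the 4 wild-type (blue) and 4 alpha-MHC-NOS3 (red) intact arrays, with circles for males, triangles for females and a line at the group mean. In all 12 panels the groups do not overlap; Nr4a1, Fos and Adrb1 are lower in NOS3 and the other 9 higher.

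Several imprinted genes rose. Peg3, a zinc finger gene expressed from the paternal allele, was at -1.17, 0.84, -1.38 and -1.62 in NOS3 and at -3.41, -3.61, -4.11 and -4.08 in wild type. The groups were apart, with NOS3 replicate 2 well above the rest, and Peg3 rose by 2.97 ± 0.48 (7.84-fold, adjusted p = 0.0216). Its other probe differed by 2.47. The call was lost in 5 of 8 omissions of an array, with an adjusted p of 0.0864 without wild-type replicate 4.

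Snrpn, Snurf and Snhg14 lie side by side at the locus known for Prader-Willi syndrome and are transcribed from the paternal allele. Snrpn, a splicing protein gene, was at 3.87, 4.38, 4.16 and 3.69 in NOS3 and at 2.02, 2.38, 2.14 and 2.32 in wild type. Snurf, which shares a transcript with Snrpn, was at 2.74, 3.34, 3.16 and 2.62 against 0.98, 1.17, 1.08 and 1.05. Snhg14, the long noncoding RNA downstream, was at 0.87, 1.46, 0.95 and 0.54 against -0.77, -0.78, -0.99 and -1.07. All 3 genes were higher on every NOS3 array than on any wild-type array. Snrpn rose by 1.81 ± 0.21 (adjusted p = 0.00416), Snurf by 1.89 ± 0.31 (adjusted p = 0.0216) and Snhg14 by 1.86 ± 0.35 (adjusted p = 0.0382). The second probe of Snrpn differed by 1.82, but the second probe of Snhg14 by 0.02. A shared transcript could reach the probes of more than 1 of these genes, so the 3 are not independent. Only the Snrpn call was kept in every omission; without wild-type replicate 4 Snurf was at an adjusted p of 0.109, and without NOS3 replicate 2 Snhg14 was at 0.174. Of 28 measured imprinted genes these 4 were called, all higher (0.536% of all genes), and the list median was -0.03; Ndn, a paternally expressed neighbour of Snrpn, differed by 0.03 ± 0.10.

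Other large rises were in transcripts with little known role in the ventricle. Mei1, a gene needed for meiotic recombination, was at -3.40, -2.61, -2.49 and -2.39 in NOS3 and was not well above background on any wild-type array. Against the same kind of floor Mei1 was 3.11-fold higher (measured 2.67 ± 0.25, adjusted p = 0.00108), and after TAC it differed by 2.58 ± 0.25. The transcript AK147324 was likewise measured above background in NOS3 alone and was 3.9-fold higher against that floor (measured 4.17 ± 0.33, adjusted p = 0.000296). Folds against that floor were 3.98 for Krtap6-1, a keratin-associated protein gene, and 2.41 for LOC631323, which the array's annotation likens to an immunity-related GTPase. The other probe of Krtap6-1 differed by -0.11. Of the 15 alternative ways of processing, Mei1, AK147324 and LOC631323 were tested in only 13 and Krtap6-1 in 14. Each of the 4 genes lost its call in 1 of those. Over those alternatives and the omissions the lowest differences of Mei1, AK147324, Krtap6-1 and LOC631323 were 0.82, 1.58, 0.97 and 0.63. Their highest adjusted p were 0.474, 0.225, 0.442 and 0.567. Wnt7b, a secreted Wnt ligand, rose by 1.93 ± 0.26 (3.8-fold, adjusted p = 0.00814), and the expressed sequence TC1492305 by 2.88 ± 0.34 (7.37-fold, adjusted p = 0.00416). Wnt7b was well above background on only 2 wild-type arrays. Its call was lost in 4 of 14 alternatives other than omissions, with a lowest difference of 0.93 and a highest adjusted p of 0.256. BC023105, the probe A_52_P480044 and ENSMUST00000073543 rose by 2.56, 2.39 and 2.13. They were well above background on only 1, 2 and 2 wild-type arrays. Their calls were lost in 1 of 13, 3 of 14 and 5 of 14 alternatives other than omissions in which they were tested. Leaving out wild-type replicate 4 gave an adjusted p of 0.0703 for BC023105, 0.0689 for LOC631323 and 0.109 for A_52_P480044, and leaving out NOS3 replicate 2 gave 0.179 for ENSMUST00000073543.

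Alpha-class glutathione transferases, which conjugate glutathione to electrophiles, were among the larger rises. Gsta2 was at 3.32, 4.01, 2.81 and 3.51 in NOS3 and at -0.32, -0.49, -0.06 and -0.44 in wild type. Gsta1 was at 4.74, 5.32, 4.07 and 4.80 against 1.32, 1.20, 1.65 and 1.44. For both genes the groups lay far apart. Gsta2 rose by 3.74 ± 0.50 (13.4-fold, adjusted p = 0.00781) and Gsta1 by 3.33 ± 0.47 (10-fold, adjusted p = 0.0108). A further probe next to Gsta2, A_51_P305138, rose by 3.58 ± 0.48. These genes are near-identical in sequence, so a rise of 1 of them cannot be told from a rise of both. Gsta1 was at an adjusted p of 0.0689 without wild-type replicate 4. After TAC the differences were 2.93 ± 0.50 and 2.73 ± 0.47. Of 22 measured glutathione transferases Gsta2 and Gsta1 were the 2 called (0.536% of all genes called higher). At an unadjusted p under 0.05, 7 were higher and 2 lower (4.93% and 9.04% of all genes). All NOS3 arrays lay above all wild-type arrays in 7 (3.89% of all genes) and below them in 1 (6.06%). The list median was -0.05, against -0.06 for all genes. Of the 20 not called, Gsta4 differed by 0.76 ± 0.18 (adjusted p = 0.104) and Gstm7 by -0.42 ± 0.10 (adjusted p = 0.103).

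Of 20 measured NRF2 target genes, 6 were called, all higher (0.536% of all genes), 14 had an unadjusted p under 0.05 and a positive sign (4.93% of all genes), and in 13 every NOS3 array was above every wild-type array (3.89% of all genes). In all, 17 of the 20 had a positive sign (36.2% of all genes) and 3 a negative sign with no call. The list median was 0.36, against -0.06 for all genes. Genes of this kind carry the antioxidant response element, the site at which NRF2 binds with a small Maf protein. The letters TGACNNNGC were searched on both strands of RefSeq promoters (GRCm38.p6, 250 bases before to 50 after the start). They were found for 8 of the 17 list genes with a promoter in that table (47.1%), against 14.0% of all genes in it and 17.0% of the tested genes in it. Of the 8 called genes of this list and the glutathione transferase list, 7 had a promoter in it and 3 of these a match. Among glutathione transferases 4 of 20 had a match (20.0%). A match is a description of the letters and not a bound site. The called genes whose match lies before the start are shown with the element in capitals, read 5′ to 3′ on the gene's strand. Pir, Mafg and Htatip2 are no members of the list and were chosen after their values were seen.

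Gclm (chr3:122245398-122245456, + strand): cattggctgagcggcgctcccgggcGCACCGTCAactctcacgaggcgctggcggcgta
Txnrd1 (chr10:82859089-82859147, + strand): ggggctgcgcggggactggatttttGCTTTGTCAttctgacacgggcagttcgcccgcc
Pir (chrX:164269192-164269250, + strand): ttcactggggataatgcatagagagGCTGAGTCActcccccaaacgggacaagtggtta
Mafg (chr11:120633736-120633794, - strand): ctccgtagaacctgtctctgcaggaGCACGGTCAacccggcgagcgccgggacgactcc
Htatip2 (chr7:49759438-49759496, + strand): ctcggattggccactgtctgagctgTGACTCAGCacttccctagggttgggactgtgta

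In Gclm, Txnrd1, Pir and Mafg the element stands in reverse orientation, and in Htatip2 in forward orientation. Gclm, the modifier subunit of the enzyme that starts glutathione synthesis, was at -1.79, -0.94, -1.57 and -1.31 in NOS3 and at -2.73, -2.08, -2.70 and -2.21 in wild type. Srxn1, sulfiredoxin, which repairs over-oxidised peroxiredoxins, was at 2.86, 3.08, 2.48 and 3.08 against 1.90, 1.97, 1.84 and 1.80. Neither gene overlapped between the groups. Gclm rose by 1.03 ± 0.17 (2.04-fold, adjusted p = 0.0216) and Srxn1 by 1.00 ± 0.13 (2-fold, adjusted p = 0.00781). The other 2 probes of Srxn1 differed by 1.39 and 1.40.

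Nqo1, a quinone reductase, was at 4.50, 4.16, 4.37 and 4.21 in NOS3 and at 3.35, 3.31, 3.50 and 3.06 in wild type. Hmox1, the haem oxygenase that yields carbon monoxide and biliverdin, was at 0.91, 1.59, 1.30 and 1.55 against 0.57, 0.45, 0.63 and 0.86. Both separated the groups, Hmox1 by a narrow gap. Nqo1 rose by 1.00 ± 0.17 (adjusted p = 0.0226), Osgin1, a growth inhibitor induced by oxidative stress, by 1.03 ± 0.16 (adjusted p = 0.0204), Hmox1 by 0.71 ± 0.13 (adjusted p = 0.0315) and Txnrd1, the cytosolic thioredoxin reductase, by 0.63 ± 0.11 (adjusted p = 0.0287). Txn1, the thioredoxin it reduces, rose by 0.40 ± 0.08 (adjusted p = 0.0414), a call lost whichever of the 8 arrays was left out (highest adjusted p 0.174). Of the 6 list members called, only Srxn1 was called whichever array was left out; the highest adjusted p of the other 5 was 0.0808 for Osgin1 without NOS3 replicate 3, 0.0969 for Gclm, 0.12 for Hmox1 and 0.125 for Txnrd1 without NOS3 replicate 2, and 0.109 for Nqo1 without wild-type replicate 4.

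Of the further genes with a printed promoter, Pir, an iron-containing nuclear protein, was at 1.60, 2.03, 1.70 and 1.85 in NOS3 and at 0.77, 0.47, 0.40 and 0.42 in wild type. It rose by 1.28 ± 0.18 (2.42-fold, adjusted p = 0.0108). Mafg, a small Maf protein that pairs with NRF2, rose by 0.61 ± 0.09 (adjusted p = 0.0108) and Htatip2, an oxidoreductase, by 0.62 ± 0.12 (adjusted p = 0.0424). On leaving out wild-type replicate 4 the adjusted p was 0.0689 for Pir and 0.0602 for Mafg, and without NOS3 replicate 2 it was 0.174 for Htatip2. Members of the list that separated the groups without passing the test included Gclc, the catalytic subunit partner of Gclm, at 0.55 ± 0.12 (adjusted p = 0.0765), and Ftl1, ferritin light chain, at 0.61 ± 0.15 (adjusted p = 0.111). Keap1 differed by 0.06 ± 0.07. After TAC, Hmox1 differed by -0.04 ± 0.13 and Mafg by 0.02 ± 0.09, with unadjusted interaction p of 0.0015 and 0.00045 that did not pass adjustment.

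Among other redox genes, none of 20 superoxide and peroxide detoxifying genes was called, with 2 higher and 2 lower at an unadjusted p under 0.05 (4.93% and 9.04% of all genes). None of 10 NADPH oxidase and xanthine dehydrogenase genes was called. Of those, 5 were higher at an unadjusted p under 0.05 (4.93% of all genes), among them Cybb, the phagocyte oxidase subunit, at 0.58 ± 0.17 (adjusted p = 0.175).

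**Figure D4:**
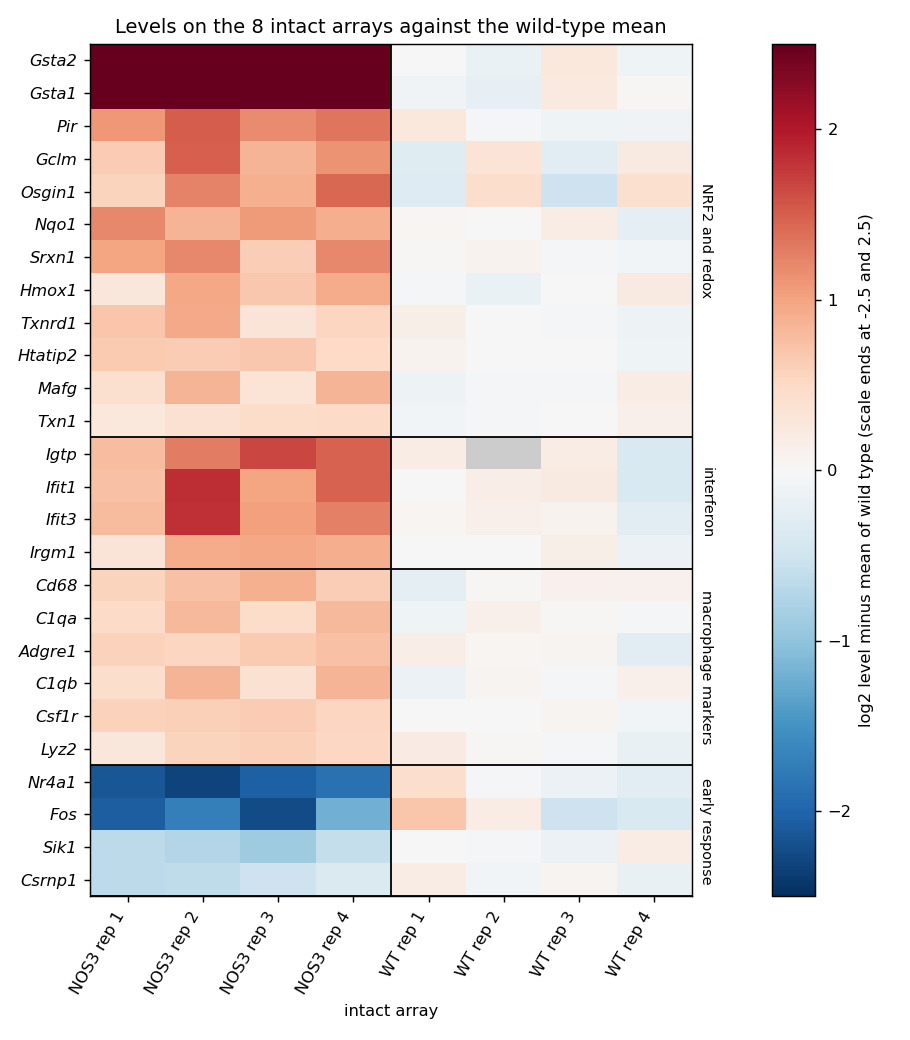
Log2 level minus the mean of the wild-type arrays (colour, scale ends at -2.5 and 2.5) of 26 genes in rows on the 8 intact arrays in columns; grey is a spot removed as an outlier. Redox, interferon and macrophage genes are above the wild-type mean on all 4 NOS3 arrays, and Nr4a1, Fos, Sik1 and Csrnp1 are below it.

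Of 32 measured interferon-stimulated genes, 4 were called, all higher (0.536% of all genes), 31 had a positive sign (36.2% of all genes) and 17 had an unadjusted p under 0.05 with that sign (4.93% of all genes). The list median was 0.32. Such genes carry the interferon-stimulated response element, a site bound after interferon signalling. Its letters, TTTC repeated after any 2 bases, searched on both strands, were found for 15 of the 27 list genes with a promoter in the RefSeq table (55.6%), against 3.99% of all genes and 3.65% of the tested genes in it. All 4 called genes had a match before the start, and these are shown with the elements in capitals.

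Ifit1 (chr19:34640760-34640838, + strand): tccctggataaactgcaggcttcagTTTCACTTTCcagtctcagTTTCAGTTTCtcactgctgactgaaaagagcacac
Ifit3 (chr19:34583348-34583441, + strand): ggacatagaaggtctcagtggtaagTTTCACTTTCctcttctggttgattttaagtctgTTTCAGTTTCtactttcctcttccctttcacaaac
Igtp (chr11:58199497-58199555, + strand): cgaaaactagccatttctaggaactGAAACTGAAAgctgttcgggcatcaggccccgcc
Irgm1 (chr11:48871421-48871475, - strand): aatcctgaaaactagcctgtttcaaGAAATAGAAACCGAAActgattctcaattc

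Ifit1 and Ifit3 each hold 2 elements in forward orientation, Igtp holds 1 in reverse, and Irgm1 holds 2 that overlap, in reverse. Ifit1, which binds foreign RNA, was at -0.72, 0.38, -0.47 and 0.02 in NOS3 and at -1.45, -1.29, -1.23 and -1.84 in wild type. Ifit3, its partner in that complex, was at 2.28, 3.31, 2.51 and 2.74 against 1.54, 1.61, 1.58 and 1.21. The groups did not overlap, and NOS3 replicate 2 was highest for both. Ifit1 rose by 1.26 ± 0.24 (2.39-fold, adjusted p = 0.0432) and Ifit3 by 1.22 ± 0.23 (2.34-fold, adjusted p = 0.0382).

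Igtp and Irgm1 encode immunity-related GTPases, which act on membranes around intracellular microbes. Igtp was at 4.15, 4.66, 5.05 and 4.86 in NOS3 and at 3.56, 3.57 and 3.01 on the 3 wild-type arrays that gave a value, the spot of replicate 2 being an outlier left out of the fit. Irgm1 was at 1.56, 2.17, 2.20 and 2.15 against 1.23, 1.23, 1.37 and 1.10. These groups did not overlap either. Igtp rose by 1.36 ± 0.25 (2.57-fold, adjusted p = 0.0439) and Irgm1 by 0.78 ± 0.15 (1.72-fold, adjusted p = 0.0426). Without wild-type replicate 4 the adjusted p was 0.18 for Ifit1, 0.155 for Ifit3, 0.195 for Igtp and 0.18 for Irgm1, and none of the 4 was called. After TAC the differences were 1.19, 0.99, 1.21 and 0.70 for Ifit1, Ifit3, Igtp and Irgm1. Cxcl10, the interferon-induced chemokine, had the largest difference of the list, 1.89 ± 0.56, but did not pass the test (adjusted p = 0.18). Tbk1, a kinase upstream of type I interferon, rose by 0.77 ± 0.10 (adjusted p = 0.00713) on its brighter probe, while its other probe differed by 0.10.

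None of the 20 antigen presentation genes was called, though all 20 had a positive sign (36.2% of all genes) and 10 had an unadjusted p under 0.05 (4.93% of all genes higher at that p). The list median was 0.31. Ctss, the protease that trims the class II invariant chain, was at 2.96, 3.23, 3.42 and 3.14 in NOS3 and at 2.65, 2.51, 2.45 and 2.24 in wild type, a difference of 0.72 ± 0.19 (adjusted p = 0.143). The class II chain H2-Ab1 differed by 0.68 ± 0.21 (adjusted p = 0.198).

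Macrophage markers were also higher in NOS3. All 6, namely Adgre1, Csf1r, Cd68, Lyz2, C1qa and C1qb, were well above background on all 8 arrays, had a positive sign with an unadjusted p under 0.05 (4.93% of all genes), and were higher on every NOS3 array than on any wild-type array (3.89% of all genes). Their summed linear level ran from 82.3 to 98.3 in NOS3 and from 58.5 to 73.4 in wild type, and their median difference was 0.63. Adgre1, which encodes the F4/80 antigen, was at 1.80, 1.76, 1.88 and 1.96 against 1.38, 1.26, 1.29 and 0.95. Csf1r, the receptor that sustains macrophages, was at 1.75, 1.77, 1.80 and 1.71 against 1.17, 1.17, 1.24 and 1.09. The 2 rose by 0.63 ± 0.11 (1.55-fold, adjusted p = 0.0313) and 0.59 ± 0.10 (1.5-fold, adjusted p = 0.0267) and were the members called. One of the 2 further probes of Csf1r differed by 0.60 and the other by -0.16. Without wild-type replicate 4 Adgre1 was at an adjusted p of 0.133, and without NOS3 replicate 2 Csf1r was at 0.12. After TAC the median difference of the 6 was 0.14, with Adgre1 at 0.32 and Csf1r at 0.12. The part of macrophage number in the interferon, antigen presentation and NRF2 results was not tested.

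Further called genes known from macrophages, picked after their values were seen, were Msr1, Slc11a1, Lilrb4a, Clec4n, Clec4a2, Tlr7, Lcp1 and Ccl12. Msr1, a scavenger receptor, was at -1.81, -1.70, -1.62 and -1.68 in NOS3 and at -2.42, -2.46, -2.45 and -2.51 in wild type, and rose by 0.76 ± 0.08 (1.69-fold, adjusted p = 0.00293). Its other 2 probes differed by 0.54 and 0.57, and it was the only one of these 8 genes to keep its call in every omission of an array. Slc11a1, a metal transporter of the phagosome, rose by 0.69 ± 0.09, and Ccl12, a monocyte-attracting chemokine, by 1.55 ± 0.30 (adjusted p = 0.0426). Without wild-type replicate 4 Slc11a1 was at an adjusted p of 0.0513, and without NOS3 replicate 2 Ccl12 was at 0.195. Clec4a2 had its wild-type replicate 2 spot in a departing area, and without it the adjusted p was 0.0623. Markers of fibroblasts, endothelium, lymphocytes, smooth muscle and the other types checked were not called. The 6 smooth muscle and pericyte markers had a median of -0.45, all with a negative sign, led by Myh11 at -0.87 ± 0.22 (adjusted p = 0.113). Their summed linear level ran from 54.3 to 68.4 in NOS3 and from 62.9 to 104 in wild type. That of the 3 measured skeletal muscle markers ran from 57.0 to 85.1 and from 93.8 to 109 and did not overlap, with no member called. Nearly all of this sum was Myh4, at a mean level of 6.22 in NOS3 and 6.65 in wild type. Mylpf was at -2.25 and -2.14 and Tnnt3 at -4.71 and -4.41. Myh4 and Tnnt3 separated the groups, as did 6.06% of all genes with NOS3 below wild type, and Mylpf did not. The part of these cell types in the falls was not tested.

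**Figure D5:**
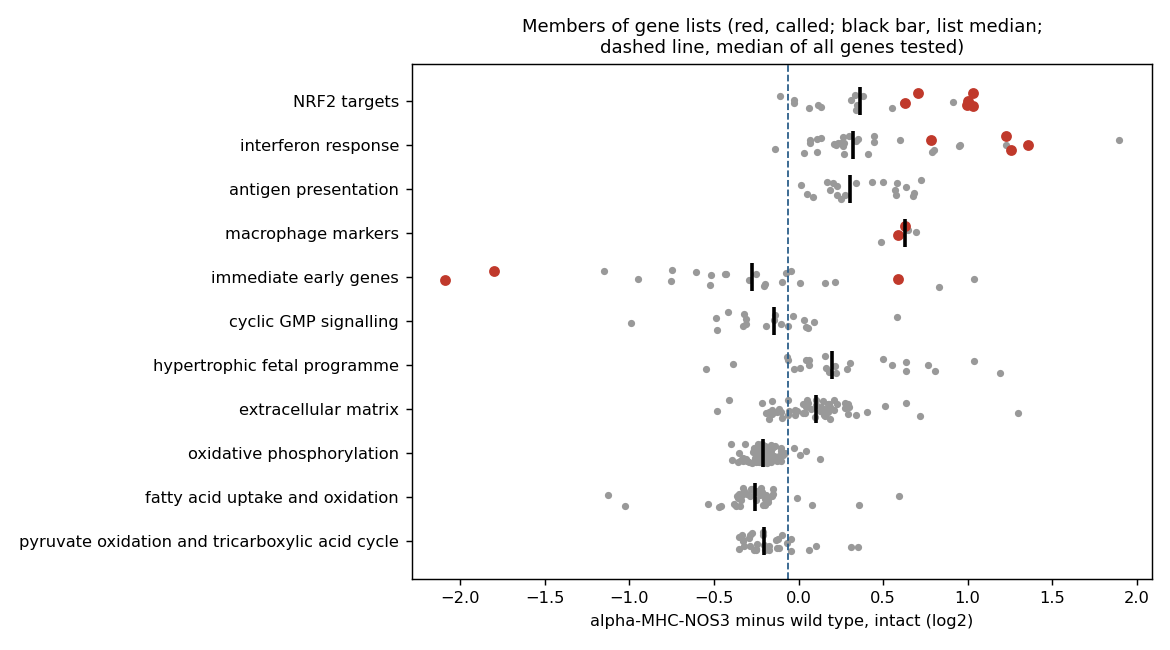
Difference between alpha-MHC-NOS3 and wild-type intact ventricle (log2, x axis) of each measured member of 11 gene lists (rows), called members in red, with a black bar at the list median and a dashed line at the median of all genes tested, -0.06. The medians of the NRF2, interferon, antigen presentation and macrophage lists lie above it and those of the 3 mitochondrial lists below.

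Nr4a1 and Fos, immediate early genes switched on within minutes of neural, hormonal or mechanical stimuli, fell most. Nr4a1, an orphan nuclear receptor, was at 3.09, 2.93, 3.20 and 3.36 in NOS3 and at 5.68, 5.20, 5.10 and 4.96 in wild type. Fos, a subunit of the AP-1 factor, was at -3.54, -3.18, -3.70 and -2.66 against -0.77, -1.28, -1.98 and -1.85. Neither overlapped between the groups. Nr4a1 fell by 2.09 on the log2 scale (SE 0.21), or 4.25-fold (adjusted p = 0.00153), and kept its call in every omission. Fos fell by 1.80 (SE 0.29), or 3.48-fold (adjusted p = 0.0216), and was at an adjusted p of 0.094 without NOS3 replicate 2. After TAC the differences were -0.85 ± 0.21 and -0.85 ± 0.29. Of 24 measured immediate early genes 10 were lower at an unadjusted p under 0.05 (9.04% of all genes) and 3 higher (4.93% of all genes), with a median of -0.27. Dusp1, a phosphatase of MAP kinases, separated the groups at -0.95 ± 0.19 without passing the test (adjusted p = 0.0579).

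Ier5, a further immediate early gene, went the other way. It was at 5.06, 5.68, 5.44 and 5.69 in NOS3 and at 4.70, 4.81, 4.88 and 5.13 in wild type, so that the groups overlapped, and it rose by 0.59 ± 0.10 (adjusted p = 0.0267). After TAC it differed by -0.49 ± 0.10; this interaction had the smallest p of all genes, 9.6e-06 unadjusted and 0.11 adjusted. The intact rise was at an adjusted p of 0.109 without wild-type replicate 4. Sik1, a kinase induced by cyclic AMP, fell by 0.72 (SE 0.12, adjusted p = 0.0216) and was at an adjusted p of 0.109 without wild-type replicate 4. The cyclic AMP response element TGACGTCA was in the promoter of 3 of 19 list genes, against 2.03% of all genes and 3.36% of the tested genes in the promoter table, and in none of the 3 called.

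Genes of adrenergic signalling included one further fall. Adrb1, the main beta-adrenergic receptor of the ventricle, was at 1.06, 0.67, 0.95 and 0.74 in NOS3 and at 1.58, 1.46, 1.28 and 1.53 in wild type. It fell by 0.61 (SE 0.11), or 1.53-fold (adjusted p = 0.0313), and its other probe differed by -0.50. Adrb1 was the only call among 25 measured genes of this list (0.160% of all genes called lower), and without wild-type replicate 4 it was at an adjusted p of 0.135. Pnmt, which makes adrenaline from noradrenaline, was at -2.72, -2.99, -2.76 and -2.62 against -2.15, -2.11, -2.17 and -2.12 and fell by 0.64 (SE 0.11, adjusted p = 0.0243), or 0.109 without wild-type replicate 4.

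Cd93, a lectin-like receptor of endothelium and myeloid cells, was at 3.19, 2.12, 2.89 and 2.57 in NOS3 and at 4.42, 3.88, 4.30 and 3.96 in wild type. The groups were apart, and Cd93 fell by 1.45 (SE 0.19), or 2.73-fold (adjusted p = 0.00766), kept in every omission. Its other probe, however, differed by only -0.10, so the fall was seen on 1 of 2 probes. The remaining falls were smaller. Myom3, an M-band protein of the sarcomere, fell by 1.01 (SE 0.19) and Gpt, alanine aminotransferase, by 0.84 (SE 0.16). Zfp296, a zinc finger gene, fell by 0.71 (SE 0.09) and differed by -0.79 after TAC, while its other probe differed by -0.10. Clstn3, a synaptic adhesion gene, fell by 0.69 (SE 0.11) and differed by 0.25 after TAC. Further falls, between 0.64 and 1.02, were those of 6330500D04Rik, Epop, Zfp879, Tmed1 and NP382146. Of these genes only Cd93 and Zfp296 kept their calls in every omission of an array; the highest adjusted p was 0.148 for Myom3 without wild-type replicate 2 and 0.174 for Gpt without NOS3 replicate 2.

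The genes that mark cardiac load were not called. Nppb, the B-type natriuretic peptide, was at 5.14, 6.10, 5.09 and 5.85 in NOS3 and at 4.52, 3.89, 4.96 and 4.66 in wild type. These groups did not overlap, and the difference was 1.04 ± 0.30 (adjusted p = 0.174). Nppa, the atrial peptide and one of the atrial markers above, differed by 0.50 ± 0.40 with overlapping arrays. Its highest level, 7.50, was on wild-type replicate 1, the array with the highest atrial sum. Myh6, whose promoter drives the transgene, was at 7.93, 7.99, 7.66 and 7.66 against 7.65, 7.91, 7.84 and 7.81, a difference of 0.01 ± 0.12 whose sign changed with array weights. Its other probe was at 8.62, 8.50, 8.70 and 8.72 in NOS3 and at 8.63, 8.81 and 8.98 on 3 wild-type arrays, but at -6.37 on wild-type replicate 2, where it lay in a departing area. That probe of Myh6 differed by 3.62 ± 2.38 with this spot and by -0.14 ± 0.15 without it (adjusted p = 0.508 and 0.725). Myh7, the slow myosin heavy chain, differed by 0.21 ± 0.22 and skeletal actin Acta1 by 0.16 ± 0.35. Atp2a2, the calcium pump of the sarcoplasmic reticulum, and its inhibitor Pln differed by -0.25 ± 0.13 and -0.20 ± 0.11. None of 24 fetal programme genes, 33 calcium handling genes and 56 extracellular matrix genes was called, against 0.696% of all genes. Of the matrix genes none had an unadjusted p under 0.05 (14.0% of all genes). A positive sign was seen in 19 of the 24, 4 of the 33 and 37 of the 56, against 36.2% of all genes. The list medians were 0.20, -0.14 and 0.10, against -0.06 for all genes.

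Mitochondrial genes had no calls and mostly a negative sign. Of 73 oxidative phosphorylation genes 3 were positive, against 36.2% of all genes, and 33 had an unadjusted p under 0.05, all lower (9.04% of all genes), with a median of -0.21 against -0.06 for all genes. Fatty acid genes had a median of -0.26, with 13 of 39 lower and 2 higher at that p, and tricarboxylic acid cycle genes -0.20, with 12 of 32 lower and 2 higher. Sdha, the flavoprotein of complex II, was at 5.27, 5.06, 5.47 and 5.28 in NOS3 and at 5.48, 5.74, 5.59 and 5.87 in wild type, a difference of -0.40 ± 0.13 (adjusted p = 0.212). Ndufs8, a complex I subunit, differed by -0.40 ± 0.11 (adjusted p = 0.152) and Hadha, of mitochondrial fatty acid oxidation, by -0.47 ± 0.14 (adjusted p = 0.176). The cardiomyocyte markers had a median of -0.16, with 8 of 9 negative, and their part in this shift was not tested. Under quantile normalization the oxidative phosphorylation median was -0.07, where the median of all genes was -0.04.

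Some called genes were neighbours within 1 Mb by the array's annotation. Besides those at the Snrpn and Gsta2 loci, Ifit1 and Ifit3, and Igtp and LOC631323, genes that rose together were Clec4a2 and Clec4n, Pir and Vegfd, AK049610 and Cntn5, A_52_P480044 and Csf1r, Unc13a and Calr3, and Sprr2b, Sprr2e and Sprr2k. Epop and Pnmt both fell, among 22 tested genes in their span. In 2 further pairs 1 gene rose and the other fell: Mafg rose and Uts2r fell, and ENSMUST00000073543 rose and Zfp879 fell. The 3 Sprr2 genes, small proline-rich proteins of epithelia, rose by 1.11, 0.98 and 0.82 and are alike enough in sequence that their probes may share targets. Vegfd, a lymphatic growth factor, was at 0.59, 0.36, 0.28 and 0.05 in NOS3 and at -0.20, -0.32, -0.38 and -0.93 in wild type and rose by 0.78 ± 0.14 (adjusted p = 0.0317, and 0.145 without NOS3 replicate 2).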

How the data were processed

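Per the labels, RNA of 16 left ventricles was labelled with Cy3 and hybridised to one-colour Agilent arrays, and per the file headers and the submitters' processing notes signals were read with Agilent Feature Extraction 9.5.1.1. The deposited processed signal is a background-corrected intensity. The authors' deposited table holds log2 values of the same arrays, normalized in a way not given in the sources used here, and was an alternative only. Outlier and control spots were left out, spots of a probe averaged, and the log2 signal scaled to each array's 75th percentile. Probes well above background on at least 4 of 16 arrays were kept, the brightest per gene. limma 3.58.1 (R 4.3.3) fitted 4 group means, sex and slide over 16 arrays, with Benjamini-Hochberg adjustment and calls at an adjusted p under 0.05; tests are two-sided and the number of arrays limits their precision. The script was tested on simulated data. Departing areas, looked for after the data were seen, are neighbourhoods in which at least 10% of spots lie more than 2 (log2) from the median of the group's other arrays. Alternatives were background correction, normalization, filters, probe summary, slide, sex, the arrays fitted, array weights and leaving out each array. Named genes are Nos3, 7 load and calcium genes, the 15 largest rises and falls that separated the groups with every array of the higher group above background, and up to 4 called members of each of 30 gene lists; others are said to be chosen after their values were seen or illustrate a list. Members and lists were chosen with earlier results of these data known. RefSeq names and promoters are of GRCm38.p6. A few results are not reported here.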

Additional observations from a re-analysis of the deposited data

Results flagged for a closer look

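In groups of 4 arrays, 137 groups of values were examined for a single highest or lowest array far from the others, and 8 stood out; chance gives about 1 in 20. For Snhg11 in wild type it was replicate 1, at a log2 level of -4.91, where the next was -6.49. For Irgm1 in NOS3 it was replicate 1, at 1.56 with the next at 2.15, and for Wnt7b in NOS3 it was also replicate 1, at -2.52 with the next at -1.71. Clstn3 was highest on NOS3 replicate 4, at -2.54 with the next at -3.08. The atrial markers' summed linear level was 59.3 on NOS3 replicate 3, where the next was 275, and 396 on wild-type replicate 1, where the next was 87.5. The macrophage markers' sum was lowest on NOS3 replicate 1, at 82.3 with the next at 96.5, still above every wild-type array. The mesothelial markers' sum was 1.13 on wild-type replicate 1, where the next was 0.284.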

How the results depend on the processing

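The number of genes called, 109, became 28 with normexp background correction, 32 with no filter, 65 without the slide block and 71 without the sex term, and ran from 24 to 123 on leaving out 1 array. It lay between 95 and 148 with quantile normalization, the authors' table, other filters, probes averaged, slide as a random block, the 8 intact arrays alone, a variance trend or array weights. Of the 48 named genes called, 18 were called with normexp, 18 with no filter, 31 with probes above background on all 16 arrays and 30 on the 8 intact arrays alone, and between 15 and 43 on leaving out 1 array. Of the 109, 13 were called under every alternative other than omissions in which they were tested, and 1, Akr1b10, changed sign. Snhg11, among these 13, was tested in only 13 of the 15 such alternatives. The 74 calls after TAC became 6 with no filter and 44 without the slide block. Higher genes made up 77.1% of calls, and 90.6% with no filter. Myh6 was at -0.021 with array weights and between -0.077 and 0.064 on omissions. It was at 3.68 with quantile normalization and 3.02 with normexp, where its other probe was the brighter, and at 1.81 with probes averaged, none of them called; that probe lay in a departing area on wild-type replicate 2. Acta1 lay between -0.15 and 0.44 on omissions; the cause was not tested. The list medians and the setting of departing areas to missing were chosen after seeing the data. The labels give no replicate numbers to pair arrays by; with the NOS3 and wild-type array of a slide and sex as a block of pairs, 76 genes were called, 58 of them higher. Tests rest on 4 arrays a group, and the folds of dim probes depend on the floor used.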
